A study of Saccharomyces cerevisiae with 6 samples.

Results

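The genes described here encode the cytosolic translation factors of Saccharomyces cerevisiae, baker's yeast, which are the initiation, elongation and termination factors and the poly(A)-binding protein. They were chosen by name, and all 34 were found by gene symbol among 6470 genes or unnamed features on the arrays. Cells of a strain that the labels do not name were cultured in sealed, deoxygenated bottles in synthetic complete medium, supplied with unsaturated fatty acids, ergosterol and amino acids and chemically reduced with sodium dithionite. They were taken in exponential phase and were then aerated for 5, 10, 20, 60 or 120 min. RNA of each time was compared on 2-colour arrays with a pool of RNA taken from the same cultures before aeration, at 0 min. There is 1 sample for each of the 5 times, each from flasks of its own and condensed by the submitters from a dye-swap pair of arrays. A sixth sample is the pool set against itself on a single array. Unless another scale is named, values below are log2 ratios with aerated RNA on top and the pool beneath, so 1 is a 2-fold higher level. They rest on the reading of the deposited values as natural logs. The direction is likely from the sample titles and is not settled by the labels, which list both dyes for both channels and give the aerated RNA as channel 2 at 5 and 10 min and as channel 1 later.

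Translation starts when the cap-binding complex, made of eIF4E, eIF4G and the helicase eIF4A, brings an mRNA to a small ribosomal subunit that carries eIF3, eIF1, eIF1A, eIF5 and the initiator tRNA bound to eIF2. The guanine nucleotide exchange factor eIF2B recharges eIF2 with GTP, and eIF5B joins the large subunit. eEF1A then delivers aminoacyl-tRNAs, eEF2 moves the ribosome along the mRNA, and eEF3, a factor of fungi, is needed at each cycle of elongation in yeast. eRF1 and eRF3 release the finished protein. In yeast many genes of this machinery are expressed in proportion to growth, together with ribosomal protein genes or with ribosome biogenesis genes.

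No time has a replicate, so a value at a single time carries no error and no test. All 34 genes had a value at all 5 times, and 32 had one in the self-hybridisation, where TIF4632 and TIF35 had none. Over all genes the median absolute deviation was 0.55 at 60 min and between 0.18 and 0.24 in the other 5 samples, and the median over all genes at 60 min was 0.09. The 60 min sample was therefore broader than the others for genes at large, and its extraction text names 20 min of aeration where its other labels name 60 min. Signal strength behind each ratio was not used here, and precision is limited by how few arrays there are.

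At 5 min of aeration 27 of the 34 translation factor genes lay below the anaerobic pool, and from 10 min on most lay above it. In order of time, 5, 10, 20, 60 and 120 min, the median over the 34 genes was -0.18, 0.14, 0.33, 0.42 and 0.14, beside medians of all genes between -0.01 and 0.09. Genes above the pool numbered 7, 24, 26, 26 and 24 of 34, beside 50.1%, 50.0%, 49.8%, 54.4% and 48.6% of all genes. If the 5 min ratio runs the other way, 27 of 34 genes lay above the pool at that time, with a median of 0.18. In the self-hybridisation the median was 0.07, with 21 of 32 genes above 0. A ratio here is a share of the RNA in a whole culture, so a change in all cells and a change in some of them cannot be told apart.

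Outside 60 min few of these genes reached a 2-fold change, and at each time of aeration their share was not far from that of all genes. None did at 5 min, where 2.09% of all genes did. RPG1 alone did at 10 min, beside 4.96% of all genes. RPG1 and NIP1, which encode subunits of eIF3, did at 20 min, beside 4.74% of all genes. At 60 min 9 of 34 did, with 5 higher and 4 lower, a share close to the 24.3% of all genes that were 2-fold away in that sample. GCD2 alone did at 120 min, beside 3.19% of all genes. In the self-hybridisation the count was 0 of 32, beside 4.00% of all genes.

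**Figure D1:**
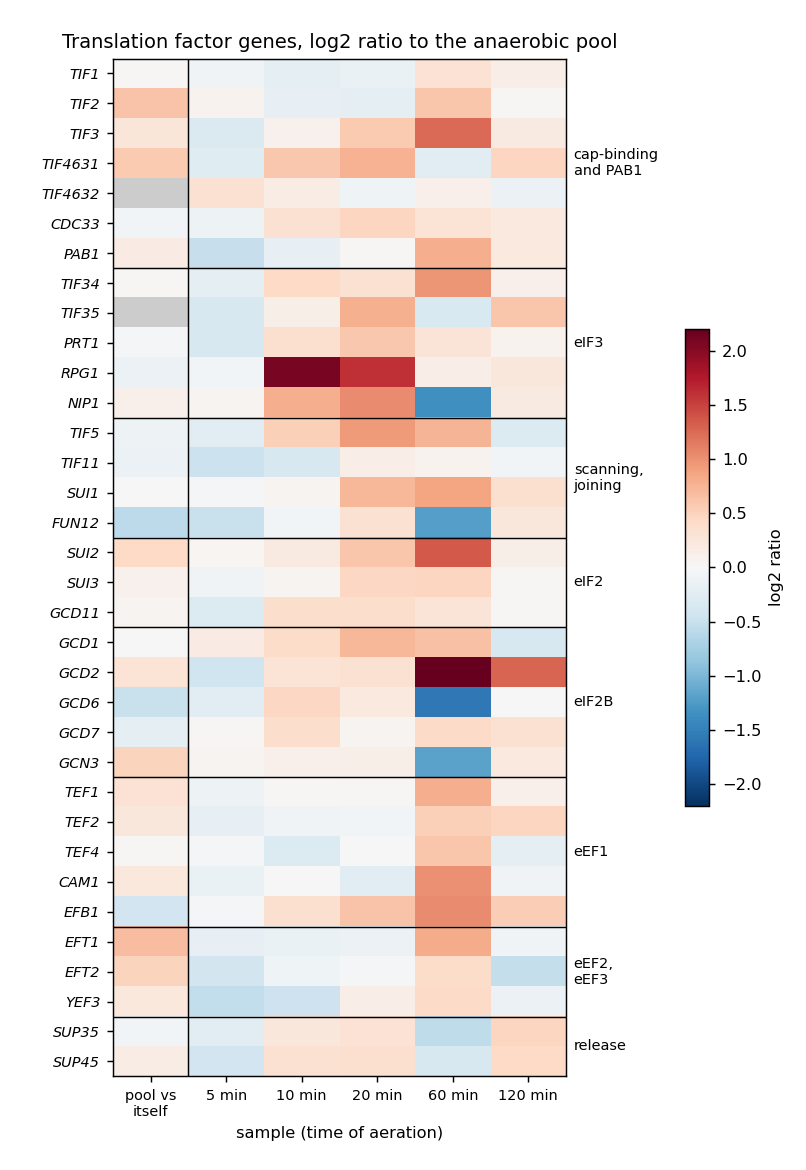
Log2 ratio to the anaerobic pool of the 34 translation factor genes (rows, grouped by role) in the self-hybridisation and at each time of aeration (columns, 1 sample each). Red is above and blue below the pool, and grey marks the 2 genes with no value. RPG1 at 10 and 20 min and GCD2 at 60 min are the darkest red cells, and 4 genes are more than 2-fold below the pool at 60 min.

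The change between 5 and 10 min was shared by most of the genes. At 10 min 30 of 34 were higher than at 5 min, with a median difference of 0.35, while 51.2% of all genes were higher and their median difference was 0.01. The difference was 2.14 for RPG1, 0.86 for TIF4631, 0.76 for SUP45 and 0.75 for TIF5. The 4 genes that were lower at 10 min were TIF1, TIF2, TIF4632 and TEF4, by at most 0.26. At 20 min 26 of 34 were higher than at 10 min, beside 50.5% of all genes, with a median difference of 0.10. At 120 min 22 of 34 were lower than at 20 min and 12 were higher, with a median difference of -0.20. Of all genes 48.9% were higher, with a median difference of -0.01. Each step compares 1 sample with 1 other, is free of the pool, and has no test.

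The count for the first step depends on the direction of the 5 min sample. With that sample's sign turned, 16 of 34 genes were higher at 10 than at 5 min, with a median difference of -0.01. The difference was then 2.02 for RPG1, 0.33 for TIF4631, -0.09 for SUP45 and 0.29 for TIF5. Of 6 genes known to respond to oxygen, 5 had opposite signs at 5 and 10 min. Among those that oxygen represses, the cell wall gene DAN1 was at 1.96 at 5 min and at -3.77 at 10 min, and TIR1, another cell wall gene, was at 2.24 and -4.25. HEM13, for an enzyme of haem synthesis, was at 1.32 and -0.93, and CYC7, for a minor form of cytochrome c, at 0.53 and -0.11. CYC1, the oxygen-induced main form, was at -1.19 and 1.76. ROX1, the oxygen-induced repressor of anaerobic genes, was above the pool at both times, at 2.69 and 2.29. Each of these genes had the same sign at 20 min as at 10 min. In the order named, their values at 20 min were -3.509, -2.835, -2.663, -1.246, 3.16 and 0.716. The direction of the 5 min ratio is not settled by these values, and every value given for that time shares this limit.

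Most initiation factor genes were above the pool at 10 and 20 min, while most elongation factor genes stayed near it. Of the 24 genes for initiation factors and the poly(A)-binding protein, the numbers above the pool were 7, 19, 21, 18 and 19 in order of time. Their medians were -0.16, 0.26, 0.43, 0.31 and 0.17. Of the 8 elongation factor genes they were 0, 3, 3, 8 and 3. Their medians were -0.16, -0.09, -0.03, 0.70 and -0.08. The initiation genes were not alike. The 7 genes of the cap-binding complex and poly(A)-binding protein had medians of 0.09 and 0.03 at 10 and 20 min, with 4 of 7 above the pool at each. The 4 scanning and joining genes had medians of -0.003 and 0.53. For eIF3, eIF2 and eIF2B the medians at these times lay between 0.20 and 0.78. No difference between groups of genes was tested. With the pool in both channels the initiation genes had a median of 0.02 and the elongation genes one of 0.24, so the elongation genes lay off 0 there too.

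**Figure D2:**
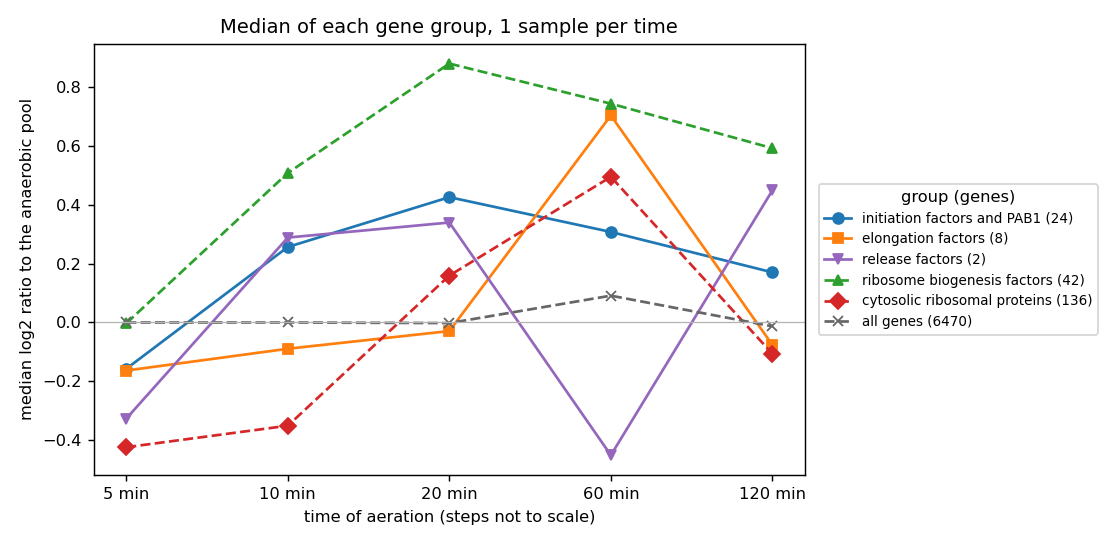
Median log2 ratio to the anaerobic pool (vertical axis) of each group of genes at 5, 10, 20, 60 and 120 min of aeration (horizontal axis, not to scale), with 1 sample per time and no error. Solid lines are translation factors and dashed lines are other groups. The initiation genes reach 0.43 at 20 min, when the elongation genes are at -0.03, and the elongation genes are at 0.70 at 60 min.

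The eIF3 genes held the largest early change. eIF3 is the multi-subunit scaffold that keeps the small subunit ready for mRNA. RPG1 (YBR079C), which encodes the largest subunit, eIF3a, was at -0.06, 2.08, 1.61, 0.14 and 0.25 in order of time. The value at 10 min, a 4.23-fold higher level, ranked 13 of 6091 genes, and that at 20 min, 3.05-fold, ranked 42 of 6292. If the 5 and 10 min ratios run the other way, RPG1 ranked 13 from the bottom at 10 min and its mean over the times was -0.0053. NIP1 (YMR309C), which encodes eIF3c, was at 0.06, 0.80, 1.04, -1.36 and 0.19. RPG1 and NIP1 were thus both highest at 10 and 20 min, and at 60 min RPG1 was near the pool while NIP1 was 2.56-fold below it.

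At 10 and 20 min the other eIF3 genes lay closer to the pool. PRT1, for eIF3b, was at -0.36, 0.35, 0.59, 0.28 and 0.08 at the 5 times. TIF34, for eIF3i, was at -0.21, 0.44, 0.34, 0.96 and 0.12. TIF35, for eIF3g, was at -0.36, 0.13, 0.78, -0.33 and 0.61. All 5 eIF3 genes were above the pool at 10, 20 and 120 min, with medians of 0.44, 0.78 and 0.19. Only NIP1 was above it at 5 min, and at 60 min the 5 genes were spread from -1.36 to 0.96. The self-hybridisation values of the 4 eIF3 genes measured there lay between -0.14 and 0.11.

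Genes of eIF2B spread furthest apart at 60 min. eIF2B is the exchange factor that the kinase Gcn2 inhibits, through phosphorylated eIF2, when amino acids run short. GCD2 (YGR083C), for its delta subunit, was at -0.43, 0.31, 0.33, 2.19 and 1.28. Its level at 60 min, 4.57-fold higher, ranked 59 of 5883 genes, and that at 120 min, 2.42-fold, ranked 41 of 6264. GCD6 (YDR211W), for the catalytic epsilon subunit, was at -0.23, 0.46, 0.22, -1.57 and -0.02. GCN3 (YKR026C), for the alpha subunit, was at 0.05, 0.11, 0.14, -1.18 and 0.22. At 60 min these subunits of 1 complex therefore lay between 4.57-fold above and 2.97-fold below the pool. In that sample 24.3% of all genes were 2-fold away. With samples scaled to the same spread, 0 of the 34 translation factor genes were 2-fold away in it.

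GCD1, for the gamma subunit, was at 0.19, 0.41, 0.73, 0.64 and -0.36. GCD7, for the beta subunit, was at 0.02, 0.38, 0.06, 0.43 and 0.33, above the pool at all 5 times. All 5 eIF2B genes were above the pool at 10 and 20 min, with medians of 0.38 and 0.22. In the self-hybridisation GCD6 was at -0.49, GCN3 at 0.49 and GCD2 at 0.31.

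The genes for eIF2 itself, which carries the initiator tRNA, were above the pool at 10, 20, 60 and 120 min. SUI2 (YJR007W), for the alpha subunit that Gcn2 phosphorylates, was at 0.05, 0.20, 0.61, 1.35 and 0.13, with 0.43 in the self-hybridisation. SUI3, for the beta subunit, was at -0.08, 0.06, 0.46, 0.47 and 0.03. GCD11, for the GTP-binding gamma subunit, was at -0.30, 0.39, 0.39, 0.29 and 0.03. At 120 min SUI3 and GCD11 were back within 0.04 of the pool.

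Factors of scanning and subunit joining did not share a course. SUI1, for eIF1, which guards start codon choice, was at -0.02, 0.05, 0.72, 0.87 and 0.35. TIF5, for eIF5, which activates the GTPase of eIF2, was at -0.23, 0.52, 0.94, 0.74 and -0.30. TIF11, for eIF1A, was at -0.48, -0.36, 0.14, 0.08 and -0.06. FUN12 (YAL035W), for eIF5B, was at -0.49, -0.06, 0.34, -1.21 and 0.24, beside -0.58 in the self-hybridisation. All 4 were below the pool at 5 min and above it at 20 min. In the self-hybridisation all 4 were below 0 too, with a median of -0.12.

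Among the genes of the cap-binding complex, CDC33, for the cap-binding protein eIF4E, was at -0.11, 0.34, 0.47, 0.29 and 0.21. TIF3 (YPR163C), for the eIF4A partner eIF4B, was at -0.32, 0.09, 0.58, 1.24 and 0.19. PAB1, for the poly(A)-binding protein that bridges the mRNA tail to eIF4G, was at -0.51, -0.17, 0.03, 0.80 and 0.21.

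TIF4631 and TIF4632, which encode related forms of the scaffold eIF4G, took different courses. TIF4631 was at -0.26, 0.60, 0.77, -0.23 and 0.47. TIF4632 was at 0.34, 0.16, -0.09, 0.11 and -0.13. The difference, TIF4631 minus TIF4632, ranged from -0.61 at 5 min to 0.86 at 20 min and averaged 0.19 ± 0.63 (SD, n = 5 times). It was above 0 at 3 of 5 times, so over the series the mean difference was smaller than its spread. TIF4631 was also at 0.57 in the self-hybridisation.

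Pairs that encode identical proteins had a smaller largest gap and a smaller SD of the difference than TIF4631 and TIF4632 over the times of aeration. For EFT1 and EFT2 the mean difference was about the same, 0.19, and the gap at 60 min was wider, 0.42 against 0.34. TIF1 and TIF2 both encode eIF4A, TEF1 and TEF2 both encode eEF1A, and EFT1 and EFT2 both encode eEF2. Their coding sequences are nearly the same, so arrays can mix up the copies, and no spot sequence was used here. TIF1 was at -0.07, -0.20, -0.14, 0.32 and 0.15, and TIF2 was at 0.08, -0.18, -0.19, 0.61 and 0.03. Their difference averaged -0.06 ± 0.16 (SD, n = 5 times) and was 0.29 at the most. In the self-hybridisation TIF1 was at 0.02 and TIF2 at 0.63.

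TEF1 was at -0.12, 0.03, 0.03, 0.79 and 0.12, and TEF2 was at -0.18, -0.08, -0.06, 0.52 and 0.48. The difference between these copies averaged 0.04 ± 0.24 (SD, n = 5 times), with the widest gap, 0.36, at 120 min. EFT1 was at -0.18, -0.15, -0.13, 0.82 and -0.08, and EFT2 was at -0.41, -0.10, -0.05, 0.40 and -0.53. Their difference averaged 0.19 ± 0.25 (SD, n = 5 times) and was 0.45 at 120 min. For each of these 3 pairs both copies had their highest value at 60 min, within a spread of up to 0.42 between copies in that sample. The EFT1 and EFT2 values at 60 min, 0.82 and 0.40, lay beside 0.68 and 0.49 in the self-hybridisation.

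**Figure D3:**
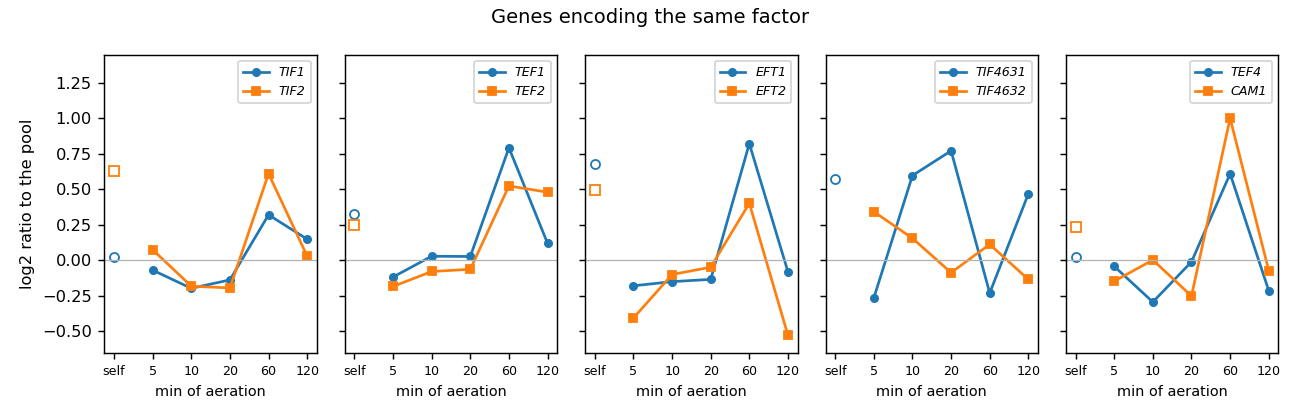
Log2 ratio to the pool (vertical axis) of 5 pairs of genes that encode the same factor, at each time of aeration (filled, joined by lines) and in the self-hybridisation (open symbols), 1 sample each. TIF1 with TIF2, TEF1 with TEF2 and EFT1 with EFT2 stay within 0.45 of each other at every time of aeration. TEF4 and CAM1 are up to 0.39 apart and TIF4631 and TIF4632 up to 0.86. In the self-hybridisation TIF1 is 0.61 below TIF2.

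The remaining elongation genes were also highest at 60 min. TEF4 and CAM1 both encode the gamma subunit of eEF1B, which recharges eEF1A. TEF4 was at -0.04, -0.29, -0.01, 0.61 and -0.21, and CAM1 (YPL048W) was at -0.15, 0.00, -0.25, 1.00 and -0.07. Their difference averaged -0.10 ± 0.27 (SD, n = 5 times) and was 0.39 at the most. TEF4 and CAM1 thus lay about as close together as the pairs that encode identical proteins. EFB1 (YAL003W), for the catalytic alpha subunit of eEF1B, was at -0.05, 0.36, 0.62, 1.05 and 0.54, and was the only elongation gene above 0.04 at 10 min. Its self-hybridisation value was -0.41. YEF3, for eEF3, was at -0.54, -0.46, 0.15, 0.42 and -0.13.

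The release factor genes followed the same course. SUP45, for eRF1, was at -0.42, 0.33, 0.35, -0.34 and 0.43. SUP35, for eRF3, was at -0.23, 0.24, 0.32, -0.56 and 0.47. Both were below the pool at 5 and 60 min and above it at 10, 20 and 120 min, and lay within 0.22 of each other at every time.

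Tests were made over the 5 times with limma, fitted on the 5771 genes with a value at every time, with Benjamini-Hochberg adjustment over all of them and a threshold of 0.05. The first test asked whether the mean over the times differs from the pool. It takes the separate flasks of the 5 times as replicates, counts change over time as spread and leaves out the spread of the pool itself. The mean was above 0 for 28 of 34 genes, with a median of 0.15, beside 50.5% of all genes and a median of 0.00. None of the 34 passed, beside 0.00% of all genes. At an unadjusted p under 0.05 there were 2 of 34 (5.88%), RPG1 and EFB1, beside 814 of all genes (14.1%). The count of genes with a mean above 0 was 24 of 34 once the spread of each sample was made equal, 24 with array weights and 25 without the 60 min sample. The median of the means was 0.23 without the 5 min sample.

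Each SE given is limma's moderated SE, which draws a gene's own spread towards that of all genes. The highest means were those of RPG1, GCD2 and EFB1, at 0.80 ± 0.33, 0.73 ± 0.35 and 0.50 ± 0.17 (moderated SE, n = 5, limma adjusted p = 0.331, 0.404 and 0.237). The lowest were those of FUN12 at -0.24 ± 0.23, GCD6 at -0.23 ± 0.28 and EFT2 at -0.14 ± 0.16 (limma adjusted p = 0.686, 0.752 and 0.745). Means of the other 28 genes lay between these values. Without the 60 min sample the mean was 0.01 for FUN12, 0.11 for GCD6 and 0.37 for GCD2. Without the 10 min sample it was 0.48 for RPG1.

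**Figure D4:**
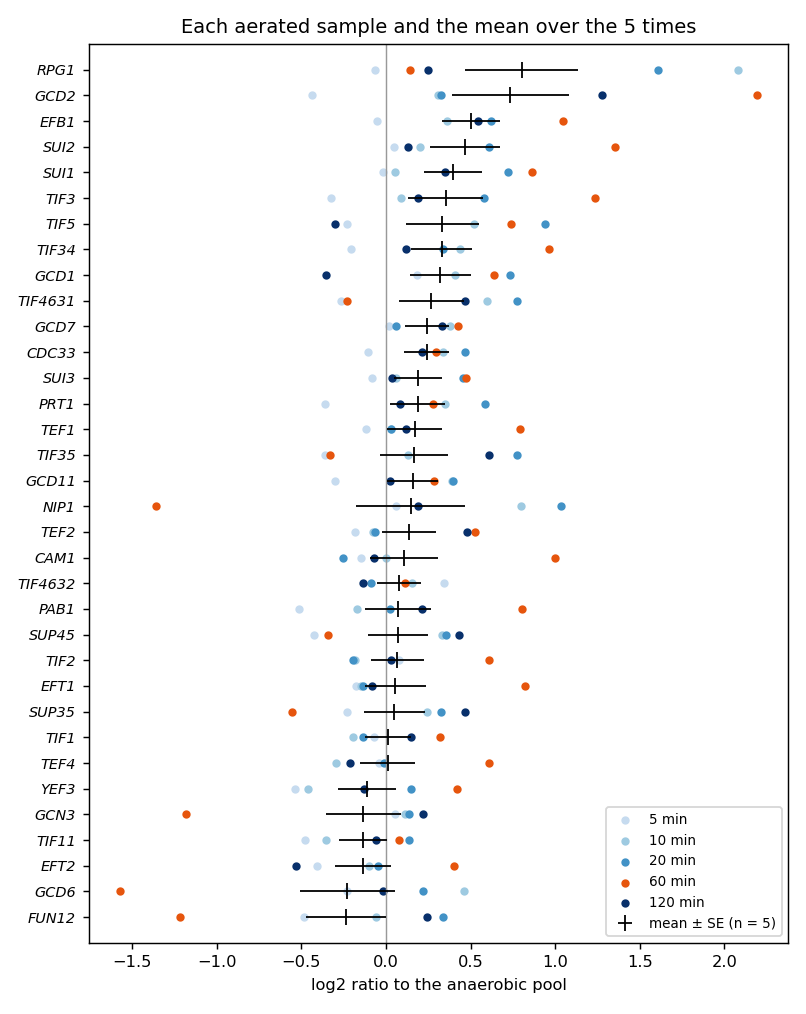
Each of the 34 translation factor genes (rows, ordered by mean) with its log2 ratio to the pool (horizontal axis) in the 5 aerated samples (dots, coloured by time). Black marks the mean over the 5 times ± limma's moderated SE. RPG1 has the highest mean, 0.80, and FUN12 the lowest, -0.24. The 60 min values (orange) are at an end of the range for many genes, high for GCD2 and low for GCD6, NIP1, FUN12 and GCN3.

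In the test of the trend, a slope on log2 of minutes that is free of the pool's spread, 27 of 34 slopes were above 0. Slopes were above 0 for 51.7% of all genes and for 128 of 135 cytosolic ribosomal protein genes. None of the 34 passed, beside 0.0173% of all genes, which is 1 gene outside this set. At an unadjusted p under 0.05 there was 1 of 34, GCD2, beside 161 of all genes. The slope of GCD2 was 0.47 ± 0.13 per doubling of time (moderated SE, n = 5, limma adjusted p = 0.936). The median slope was 0.07 per doubling of time. It was -0.0034 without the 5 min sample, with 16 of 34 slopes above 0, and 0.16 without the 120 min sample. The upward slopes of the set as a whole thus rested on the 5 min sample.

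The third test set the late times (60 and 120 min) against the early times (5 and 10 min). The 20 min sample was a phase of its own and added nothing to the difference or its SE. Late minus early was above 0 for 25 of 34 genes, with a median of 0.26, beside 51.8% of all genes and a median of 0.02. The median was 0.07 without the 5 min sample, with 19 of 34 genes above 0, 0.0953 with that sample turned, with 20 of 34, and 0.11 without the 60 min sample. Leaving out 10 min gave 0.455 and leaving out 120 min gave 0.49. None of the 34 passed here either, beside 0.00% of all genes. GCD2 had the largest difference, 1.80 ± 0.47 (moderated SE over the early and late samples, limma adjusted p = 0.788). It was the 1 gene of 34 with an unadjusted p under 0.05, beside 208 of all genes. NIP1 had the lowest, -1.01 ± 0.60. All 8 elongation genes had a positive difference, with a median of 0.54, and 16 of 24 initiation genes did, with a median of 0.18. So did 127 of 135 cytosolic ribosomal protein genes, with a median of 0.55. Without the 120 min sample 7 of the 34 genes and 1099 of 5771 genes passed, in a fit where the late phase is the 60 min sample alone and is assumed to vary like the others. The 7 were CAM1, GCD2, SUI2 and TIF3, high at 60 min, and GCD6, GCN3 and NIP1, low at 60 min.

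Other genes of translation, on lists written with earlier results of these data known, give the setting. Of 29 other cytosolic translation genes, such as HYP2 for eIF5A and the helicase gene DED1, none of the 28 tested passed in any of the 3 tests. Their medians were -0.13, 0.02, 0.16, 0.68 and 0.04 at the 5 times. DPH2, needed to make the diphthamide residue of eEF2, had the highest mean, with values of -0.28, 0.23, 0.70, 2.77 and 0.65. GCN1, which works with the kinase Gcn2, had the lowest, with -0.19, -0.16, -0.03, -1.05 and -0.36.

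Cytosolic aminoacyl-tRNA synthetase genes, which load tRNAs with amino acids, lay mostly below the pool where most initiation genes lay above it. Of the 21 genes, 4 were above the pool at 10 min and 9 at 20 min, with medians of -0.18 and -0.05, and their median at 5 min was -0.34. KRS1, for the lysyl enzyme, had the lowest mean at -0.54 and FRS1, for a subunit of the phenylalanyl enzyme, the highest at 0.05. None of the 21 passed in any of the 3 tests.

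The 42 ribosome biogenesis genes had medians of 0.00, 0.51, 0.88, 0.74 and 0.59, and REI1, for a late maturation factor of the large subunit, had the highest mean, with values of 0.19, 2.15, 1.91, 2.10 and 1.15, while NOP2, for an rRNA methyltransferase, had the lowest at -0.22. The 136 cytosolic ribosomal protein genes had medians of -0.42, -0.35, 0.16, 0.49 and -0.11, with the highest mean in RPL9B at 0.55 and the lowest in RPP2B at -0.43. At 10 min 3 of 8 elongation genes and 19 of 24 initiation genes were above the pool, beside 10 of 135 ribosomal protein genes and 39 of 42 biogenesis genes. At 20 min 3 of 8 elongation genes were above it, beside 109 of 136 ribosomal protein genes, and no difference between these groups was tested. None of the 39 biogenesis and 135 ribosomal protein genes tested passed in any of the 3 tests. Late minus early was above 0 for 127 of these 135 and 31 of these 39, with medians of 0.55 and 0.29. It was above 0 for 20 of 28 other cytosolic translation genes, 14 of 21 synthetase genes and 3 of 8 mitochondrial translation factor genes. A rise from early to late was thus not particular to the translation factors.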

How the data were processed

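The authors deposited normalized log ratios for 6495 features on 2-colour arrays. No label states the log base, and the values were read as natural log ratios because the lowest deposited value, -4.6051702, is the natural log of 0.01. They were divided by 0.6931 to give log2 ratios. If they were log2 already, each printed log2 value would be smaller by that factor. Per the series' design text, the dye-swap arrays of each aerated sample were condensed during normalization. How this was done is not given in the sources used here.

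Features were named from the platform table (5754 with 1 symbol, 741 with none). Gene identifiers paired all 5754 with RefSeq's R64 table, and features of 1 gene were averaged (25 genes). Groups came from the fields naming the RNA of each channel. The 5 min sample's description and the 60 min sample's extraction text disagree with their other fields. limma 3.58.1 in R 4.3.3 gave moderated tests of the mean, of the slope on log2 minutes and of late minus early, two-sided. The script was checked on simulated data, with noise drawn from each gene's SD over the 5 times, which also holds any change over time. At log2 sizes of 1 and 2 the slope and late-minus-early tests recovered 0% of changes. At a log2 size of 4 they recovered 82.5% and 88.5%. The test of the mean recovered 65.5% at a log2 size of 1. A miss in the slope and late-minus-early tests therefore says little about changes smaller than a log2 size of 4.

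Per the design text the times came from separate flasks, with 1 sample each, so p-values measure the spread between these 5 samples. For late minus early they measure the spread within the early and within the late pair of times. The genes described, the lists (other translation genes, synthetases, ribosome biogenesis, ribosomal proteins and mitochondrial translation factors) and the tests were chosen with earlier results of these data known. The rule for named genes gave every translation factor gene and the highest and lowest mean of each other list. Alternatives changed the log base, centring, scaling, weights, variance model, missing-value filter, feature averaging, sample direction and the times used.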

Additional observations from a re-analysis of the deposited data

Results flagged for a closer look

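For 4 of the 34 genes, 1 aerated sample stood apart from the other 4 by Dixon's ratio, the gap to the nearest value over the whole range, with a critical value of 0.71 for 5 samples. The sample was that of 60 min in all 4. The ratio was 0.902 for EFT1 and 0.798 for CAM1, and 0.740 for TEF1, all high at 60 min, and it was 0.881 for GCN3, low at 60 min. Chance flags about 1 in 20 such groups, and the 5 samples are different times, so a response at 1 time would be flagged as well. The 60 min sample also had the widest spread over all genes, with a median absolute deviation of 0.55, and its part in these values was not tested.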

How the results depend on the processing

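The count of translation factor genes past the threshold for the mean was 0 under all alternatives but array weights, where it was 1, RPG1 at 1.23. For late minus early it ranged from 0 to 7 with 1 time left out, and it was 0 for the trend throughout. The median slope was -0.0034 without 5 min. Read as log2, 2-fold genes numbered 1 at 20 min, 2 at 60 min and 0 at 120 min. Scaled to the same spread, the 60 min median was 0.18 with 0 genes 2-fold away. Genes higher at 10 than at 5 min were 16 with 5 min turned and 4 with 5 and 10 min turned. With 5 min turned its median was 0.1816, and with both turned the 10 min median was -0.1438. Of the 6 genes with the highest and lowest means, the sign of the mean changed for GCD6 (0.16 with array weights), EFT2 (0.0265 with 5 min turned, 0.0664 with 5 and 10 min turned) and RPG1 (-0.0053 with 5 and 10 min turned). With 1 time left out it ranged from -0.3993 to 0.1085 for GCD6 and from -0.3791 to 0.0088 for FUN12, both highest without 60 min. Over all 34 genes the sign of the mean changed for 8 with array weights, 6 with scaling, 4 with 5 min turned, 6 with 5 and 10 min turned and 9 without 60 min. The other 119 values that answer a comparison kept their direction and stayed within the spread over times (SD 0.23) or within 1.5 times the count. That spread is wider than the median slope of 0.0655 and the median of the means, 0.1521. It is also wider than the medians at 5, 10 and 120 min, which were -0.1816, 0.1438 and 0.1406. For all of these the rule shows little beyond a change of sign. Median slopes of 0.0174 with 5 min turned and 0.1626 without 120 min fell within the spread. So did late-minus-early medians of 0.0686 without 5 min and 0.4887 without 120 min, beside 0.2585 in the main fit. Causes were not tested. Without 120 min the late phase is 1 sample, and the same holds without 60 min.

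Over all genes, counts for the mean were 0, but 6 with 5 min turned, 13 without 5 min, 25 without 60 min, 65 with scaling and 552 with array weights. For the trend they were 1, but 2 with scaling and 0 in several others. For late minus early they were 0, but 3 without 5 min, 10 without 10 min and 1099 without 120 min. No paired analysis was possible because each time has 1 sample. Settings for 2-fold counts, turned medians and the step between 5 and 10 min were added after seeing the data.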

Other observations

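The 8 nuclear genes for mitochondrial translation factors found on the arrays showed little shared change. Their medians were 0.04, 0.13, 0.14, 0.11 and 0.19 at 5, 10, 20, 60 and 120 min. In the self-hybridisation only 5 of the 8 had a value, from -0.586 to 0.63 with a median of -0.48. None of the 8 passed in limma for the mean, the trend or late minus early. At an unadjusted p under 0.05 there was 1 of 8 for the mean (12.5%), beside 14.1% of all genes. MEF1, for a mitochondrial elongation factor, had the highest mean at 0.43 and was above the pool at all 5 times, at 0.29, 0.47, 0.48, 0.74 and 0.15. IFM1, for the mitochondrial initiation factor 2, had the lowest mean at -0.13.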
